A study of Mus musculus with 18 samples.

Results

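The spleen RNA of mice given the CD28 modulation was compared with that of untreated mice. The comparison took 9 of the 18 libraries of the series, chosen by the treatment in their labels: 6 libraries of the LPPC/MP/CD28 group (LMA) and 3 libraries of the naive group (N). LPPC is a lipo-PEG-PEI complex, a particle that holds proteins on its surface, and MP are membrane proteins prepared from dendritic cells, which carry MHC molecules with antigen peptides. The LMA mice had been immunized and boosted with LPPC/MP and were then given LPPC/MP with an anti-CD28 antibody on the particle, either 1 or 2 times, and the labels do not tell which library had which. The N mice are labelled naive and had no treatment. All mice were C57BL/6J, labelled female, with an age of 4 to 6 weeks in the labels, and no genetic change is stated. LMA thus differs from N by the immunization, the boost, the antibody and the time since the first injection, and these cannot be told apart here. The treatment and extraction fields of the labels describe melanoma-bearing mice under another regimen and RNA of their tumors, while the tissue and cell type fields give spleen and splenocytes. No source used here states that each library came from a separate animal, and p-values here therefore reflect how far the libraries spread. That spread was estimated once per gene over all 18 libraries in 4 groups. It thus rests also on libraries outside the comparison and is not that of LMA and N alone.

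CD28 is a receptor on T cells that gives the second signal beside the antigen receptor, and its ligation raises interleukin-2, survival and division of the T cell. The spleen holds T and B cells in its white pulp and macrophages, monocytes and neutrophils in its red pulp and marginal zone. In mice, the red pulp can also make granulocytes during inflammation, when immature neutrophils full of granule proteins appear there. RNA of whole splenocytes mixes all of these cells, so that fewer cells of a type and less RNA per cell cannot be told apart.

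The 3 N libraries were not alike, and their values are therefore given one by one, always in the order N 1, N 2 and N 3. Those of the 6 LMA libraries are given as the lowest, the highest and the median. N 3 held few transcripts of lymphocytes: the 20 T cell markers summed to 104 to 168 FPKM in LMA, against 1142, 741 and 12.1 FPKM in N, and the 20 B cell markers to 545 to 711 FPKM in LMA, against 3257, 2528 and 266 FPKM in N. Both sums of the 6 LMA libraries lay between N 3 and the other two. N 2 was rich in red cell transcripts, with hemoglobin at 18.4% of the summed FPKM, against 0.671% in N 1, 0.0308% in N 3 and 0.379% to 0.731% in LMA. The Y-linked gene Eif2s3y was at 34.5 to 36.8 FPKM in LMA (median 34.9), against 0, 0 and 43.02 FPKM in N, and Xist, the RNA of the inactive X chromosome, at 4.84 to 7.20 FPKM in LMA, against 55.4, 48.1 and 0.286 FPKM. All 6 LMA libraries and N 3 therefore held Y-linked transcripts although every sample is labelled female. The aligned sequence was 5.99 to 7.59 gigabases per library in LMA and 5.65 to 7.48 gigabases in N. Of the 8 markers of melanoma cells none passed the filter on low values. What these differences contribute to any result was not tested, and the counts below are given again without N 3 and without N 1 and N 2.

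**Figure D1:**
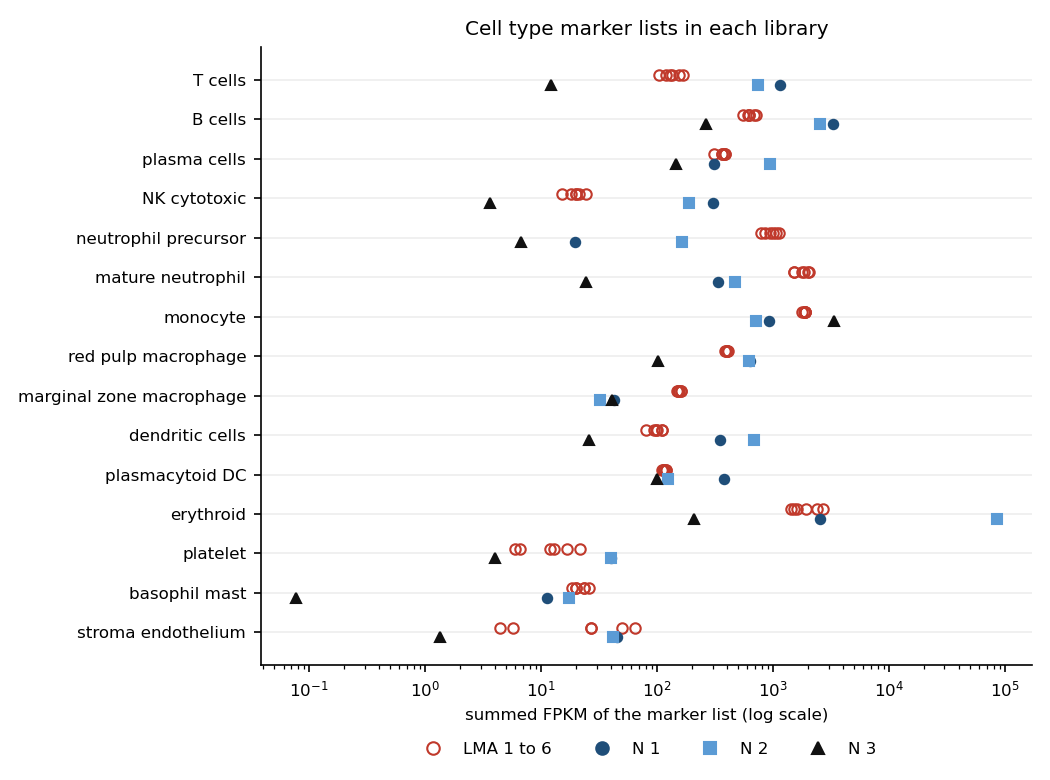
Summed FPKM of each cell type marker list (log axis), 1 point per library, for LMA 1 to 6 (open red circles), N 1 (dark circles), N 2 (light squares) and N 3 (black triangles). The T cell sum of every LMA library lies between N 3 and the pair N 1 and N 2, while the neutrophil precursor sum of every LMA library lies above all 3 N libraries.

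Of 11436 protein-coding genes tested, 1553 were higher (13.6%) and 2501 lower (21.9%) in LMA than in N, 4054 in all (35.4%), at an adjusted p below 0.05 in limma with the Benjamini-Hochberg method. The fold changes are differences of log2(FPKM + 0.5), a scale that understates the change of genes with low values. Called genes with a change over 2-fold numbered 711 higher and 482 lower. The 6 LMA values all lay above the 3 N values in 1350 genes (11.8% of those tested) and all below them in 2117 genes (18.5%). In another 1883 genes (16.5%) the LMA values lay between the N libraries with N 3 as the highest, and in 1853 genes (16.2%) between them with N 3 as the lowest, and few of these were called: 21 genes with N 3 highest were called higher and 35 with N 3 lowest were called lower. Higher genes made up 38.3% of the calls, but 49.7% on a TPM scale over protein-coding genes and 55.0% on a median-of-ratios scale, each of which moved the median of all genes tested up by 0.11 on the log2 scale. The count of calls depended on which N library was left out. It was 2654 when N 1 was left out, 2689 when N 2 was and 7552 when N 3 was, and 1725 with N 3 alone as the N group, which was then taken to vary like the other groups. Calls without N 1 split into 906 higher and 1748 lower, and those without N 2 into 913 and 1776. Without N 3 the split was 3175 higher and 4377 lower among the 11436 genes. Counts of list members with 1 of these libraries left out have to be read against these numbers. Of the calls with all libraries, 710 higher and 1391 lower ones held with each of the 9 libraries left out in turn. Both with N 3 left out and with N 3 as the only N library, 390 genes were called higher and 784 lower, whereas 12 and 41 genes were called one way without N 3 and the opposite way without N 1 and N 2.

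**Figure D2:**
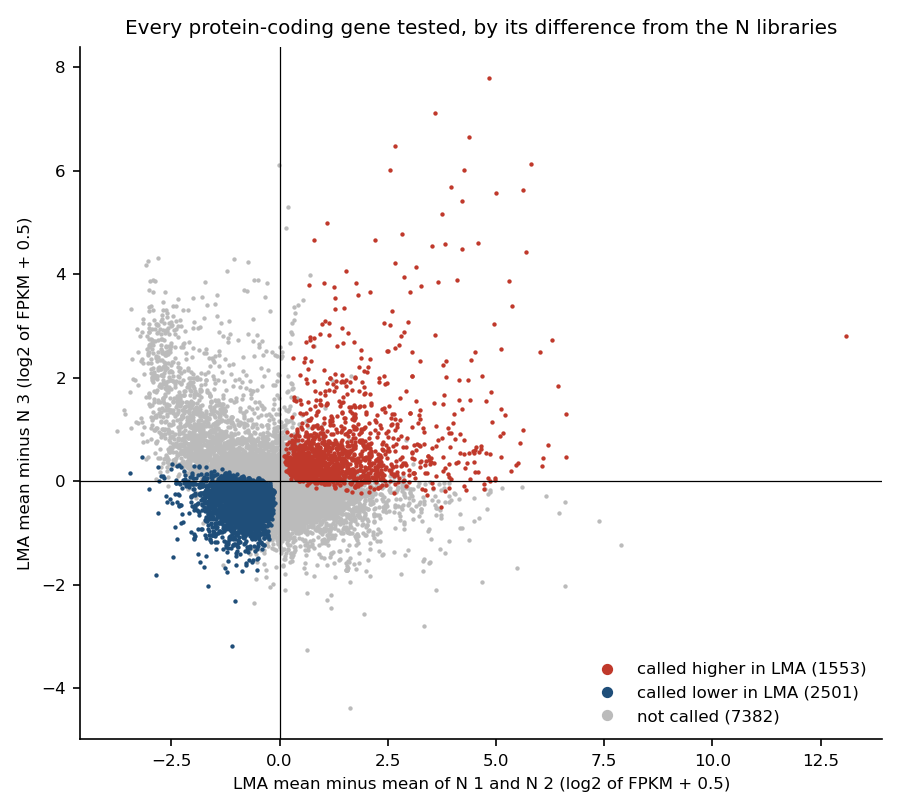
Difference of the LMA mean from the mean of N 1 and N 2 (x axis) and from N 3 (y axis) on log2(FPKM + 0.5) for each of the 11436 protein-coding genes tested; red points are the 1553 genes called higher in LMA, blue points the 2501 called lower, grey points the 7382 not called. The called genes sit mostly in the upper right and lower left, where both differences have the same sign, and the grey arm at the upper left holds genes that were lower in N 3 than in N 1 and N 2.

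The 15 largest rises included secreted proteins of the acute phase, cytokines, chemokines and neutrophil granule proteases. The rule took called genes whose LMA and N values did not overlap. It ranked them by the smallest difference from any single N library. Lipg, an endothelial-type lipase that cleaves phospholipids of lipoproteins, was at 11.5 to 13.3 FPKM in LMA (median 12.6), against 0.0218, 0.0666 and 0.0401 FPKM in N (log2 fold change 4.59 ± 0.082 SE, adjusted p = 9.7e-16). Pdpn, podoplanin, a membrane glycoprotein of stromal cells and of activated macrophages, was at 7.31 to 8.61 FPKM in LMA (median 8.16), against 0.00205, 0 and 0.0833 FPKM in N (log2 fold change 4.03 ± 0.095 SE, adjusted p = 4.1e-14). Timp1, an inhibitor of matrix metalloproteases, was at 7.32 to 8.69 FPKM in LMA (median 7.804), against 0.286, 0.0473 and 0.08100 FPKM in N (log2 fold change 3.73 ± 0.15 SE, adjusted p = 6.7e-11). For all of these, the 6 LMA values stood close together, while their separation from N was required by the rule. Saa3, an acute phase apolipoprotein, was at 50.3 to 58.8 FPKM in LMA with a median of 53.01, and at 0.759, 0.237 and 0.277 FPKM in N (log2 fold change 5.92 ± 0.16 SE, adjusted p = 2.5e-13). Wfdc17, a small secreted protein made by activated macrophages, was at 172 to 194 FPKM in LMA with a median of 184, and at 5.63, 4.96 and 3.36 FPKM in N (log2 fold change 5.19 ± 0.12 SE, adjusted p = 2.3e-14). Il1rn, the secreted antagonist of the interleukin-1 receptor, was at 157 to 177 FPKM in LMA with a median of 169, and at 3.204, 2.38 and 7.33 FPKM in N (log2 fold change 5.27 ± 0.35 SE, adjusted p = 4.7e-08). Of these 3 genes, N 3 was the highest of the N libraries for Il1rn only. The gene with the largest rise by the rule, Urah, encodes an enzyme that hydrolyses a product of urate breakdown. It was at 23.04 to 26.7 FPKM in the 6 LMA libraries and listed at 0 in all 3 N libraries, so no fold is given (adjusted p = 5.0e-18). Csn1s1, a casein of milk, was at 1.06 to 5.12 FPKM in LMA and also listed at 0 in the 3 N libraries (adjusted p = 2.0e-05). No call of this paragraph was lost when a library was left out or the scale was changed.

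**Figure D3:**
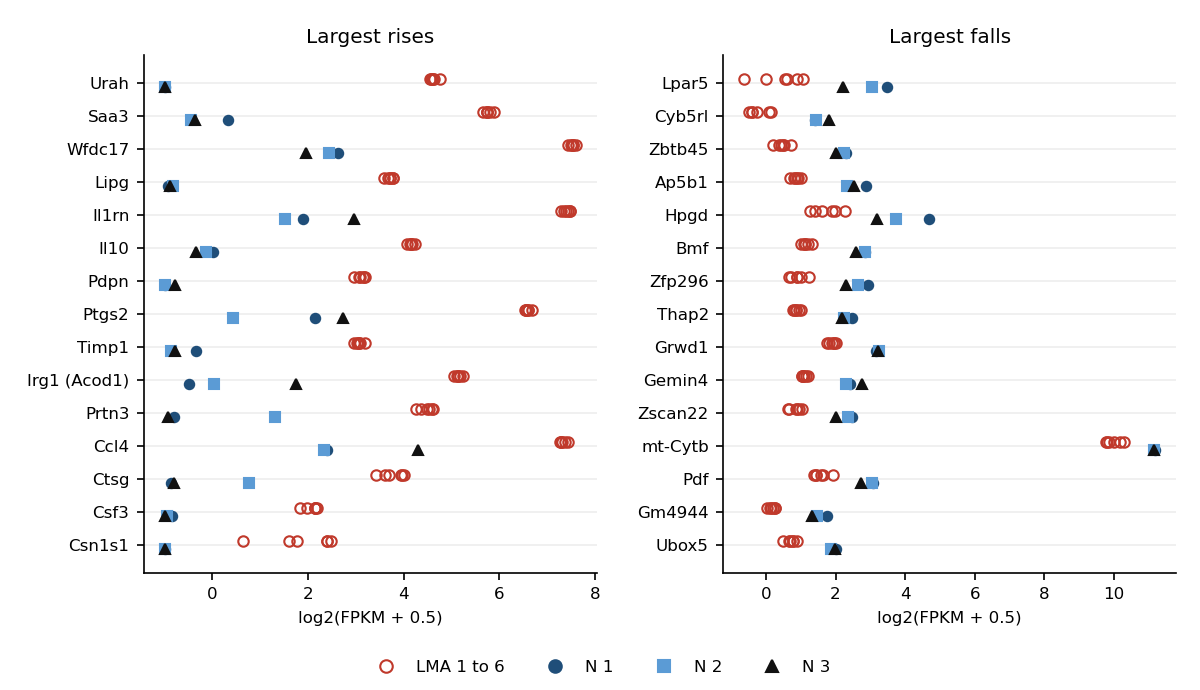
log2(FPKM + 0.5) of the 15 genes with the largest rise (left panel) and the 15 with the largest fall (right panel) in LMA by the smallest difference from any N library; open red circles are LMA 1 to 6, dark circles N 1, light squares N 2 and black triangles N 3. In every row the LMA points and the N points do not overlap, which the rule required; the LMA points of Csn1s1 and of Lpar5 are the most spread.

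The 15 largest falls by the same rule were smaller in size than the largest rises. Lpar5, a receptor for lysophosphatidic acid, was at 0.145 to 1.602 FPKM in LMA (median 0.988), against 10.7, 7.73 and 4.15 FPKM in N (log2 fold change -2.504 ± 0.32 SE, adjusted p = 3.2e-05). Hpgd, the dehydrogenase that inactivates prostaglandins, was at 1.91 to 4.35 FPKM in LMA (median 2.87), against 25.4, 12.7 and 8.68 FPKM in N (log2 fold change -2.13 ± 0.28 SE, adjusted p = 3.4e-05). Bmf, a proapoptotic member of the BCL2 family, was at 1.49 to 2.02 FPKM in LMA (median 1.67), against 6.73, 6.696 and 5.51 FPKM in N (log2 fold change -1.62 ± 0.12 SE, adjusted p = 1.4e-07). N 1 had the highest value of all 3 genes, and N 3 the lowest of the N libraries. Several nuclear and RNA-processing proteins fell by similar sizes. Grwd1, a chaperone of ribosomal protein and histone assembly, was at 2.88 to 3.56 FPKM in LMA with a median of 3.302, and at 8.39, 8.98 and 8.73 FPKM in N (log2 fold change -1.3002 ± 0.103 SE, adjusted p = 2.4e-07). Gemin4, a part of the SMN complex that assembles spliceosomal particles, was at 1.55 to 1.79 FPKM in LMA with a median of 1.61, and at 4.87, 4.39 and 6.31 FPKM in N (log2 fold change -1.397 ± 0.12 SE, adjusted p = 5.1e-07). Both stood at like levels in the 3 N libraries. Of the zinc finger genes, Zbtb45 was at 0.648 to 1.16 FPKM in LMA (median 0.884), against 4.47, 4.28 and 3.56 FPKM in N (log2 fold change -1.74 ± 0.14 SE, adjusted p = 3.7e-07). Zfp296 was at 1.09 to 1.84 FPKM in LMA (median 1.36), against 7.11, 5.75 and 4.47 FPKM in N (log2 fold change -1.73 ± 0.14 SE, adjusted p = 3.0e-07). Zscan22 was at 1.04 to 1.53 FPKM in LMA (median 1.33), against 5.002, 4.65 and 3.53 FPKM in N (log2 fold change -1.45 ± 0.15 SE, adjusted p = 2.9e-06). The rule required the LMA values of all 15 genes to lie below all N values. Of the rest, Cyb5rl, Ap5b1, Thap2, Pdf, Gm4944 and Ubox5 had medians under 3 FPKM in LMA, and mt-Cytb is described with the mitochondrial genome. No call named here ended with a library left out.

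The neutrophil precursor list rose as a whole. All 15 of its members were called higher, against 13.6% of all genes tested. Most are genes of the granules that neutrophils fill while they mature. In all 15 each LMA library was above each N library, against 11.8% of all genes. The list was chosen with earlier results of these data known, so the count is not independent of them. Several members, such as Prtn3 and Ctsg, are among the genes that the paper lists as higher with LPPC/MP/CD28 than with LPPC/MP. The list summed to 783 to 1122 FPKM in LMA, against 19.4, 163 and 6.74 FPKM in N, and its median log2 fold change was 4.08, against -0.13 over all genes tested. The count stayed at 15 with each library left out, and was 14 without both N 1 and N 2. Of the proteases of primary granules, Prtn3 (proteinase 3) was at 18.5 to 23.8 FPKM in LMA (median 22.2), against 0.0721, 1.98 and 0.0231 FPKM in N (log2 fold change 4.61 ± 0.43 SE, adjusted p = 1.5e-06). Ctsg (cathepsin G) was at 10.2 to 15.6 FPKM in LMA (median 13.7), against 0.0509, 1.19 and 0.0706 FPKM in N (log2 fold change 4.08 ± 0.29 SE, adjusted p = 9.1e-08). Ms4a3, a membrane protein of granulocyte and monocyte progenitors, was at 5.17 to 7.66 FPKM in LMA (median 6.82), against 0, 0.572 and 0.01696 FPKM in N (log2 fold change 3.43 ± 0.23 SE, adjusted p = 5.0e-08). N 2 was the highest of the N libraries for each, and N 1 and N 3 were near 0. Of the later granules, Camp, the cathelicidin peptide, was at 78.5 to 101 FPKM in LMA with a median of 92.7, and at 0.813, 16.4 and 0.903 FPKM in N (log2 fold change 4.85 ± 0.601 SE, adjusted p = 2.2e-05). Fcnb, a ficolin lectin, was at 7.397 to 11.3 FPKM in LMA with a median of 9.23, and at 0.0397, 1.74 and 0.0569 FPKM in N (log2 fold change 3.48 ± 0.38 SE, adjusted p = 5.8e-06). Olfm4, olfactomedin 4 of specific granules, was at 5.202 to 7.41 FPKM in LMA with a median of 5.697, and at 0.126, 3.21 and 0.0182 FPKM in N (log2 fold change 2.61 ± 0.59 SE, adjusted p = 0.00322). N 2 again stood above N 1 and N 3. Cebpe, the transcription factor of granule formation, was at 3.04 to 4.59 FPKM in LMA (median 4.404), against 0.801, 1.06 and 2.07 FPKM in N (log2 fold change 1.404 ± 0.25 SE, adjusted p = 5.9e-04), with N 3 as the highest N library.

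Of the 15 tested markers of mature neutrophils 7 were called higher and none lower (0 at an unadjusted p below 0.05), and the higher count was 8 when N 1 was left out, 8 when N 2 was, 5 when N 3 was and 13 with N 3 as the only N library (median log2 fold change with all libraries 1.35). Ly6g, the surface protein used to sort mouse neutrophils, was at 11.8 to 17.5 FPKM in LMA (median 14.01), against 0.769, 3.01 and 0.0426 FPKM in N (log2 fold change 3.48 ± 0.47 SE, adjusted p = 4.9e-05). G0s2, an inhibitor of triglyceride lipase, was at 5.57 to 8.92 FPKM in LMA (median 6.36), against 2.63, 2.76 and 0.351 FPKM in N (log2 fold change 1.78 ± 0.401 SE, adjusted p = 0.00302). N 3 was the lowest library for both. Cxcr2, the receptor that draws neutrophils to CXC chemokines, was at 2.803 to 3.75 FPKM in LMA (median 3.14), against 8.899, 7.86 and 0.221 FPKM in N (adjusted p = 0.958) and so lay between the N libraries. Of the mature neutrophil markers 46.7% were called higher, against 13.6% of all genes tested. Basophil genes moved in part: 3 of the 6 tested members were called higher, against 13.6% of all genes tested, and none lower. In the other 3 the LMA values lay between the N libraries with N 3 lowest. Without N 3, 2 members were called higher and 2 lower. Prss34, a basophil protease, was at 6.78 to 7.76 FPKM in LMA (median 7.12), against 0.2702, 0.896 and 0 FPKM in N (log2 fold change 3.24 ± 0.27 SE, adjusted p = 4.3e-07). Mcpt8, a protease of the same cells, was at 6.75 to 11.6 FPKM in LMA (median 8.700), against 0.4703, 1.69 and 0 FPKM in N (log2 fold change 3.19 ± 0.44 SE, adjusted p = 6.1e-05). Neither overlapped with N. The hemoglobin and red cell list, also expressed where the spleen makes blood cells, had no member called among 17 (0 at an unadjusted p below 0.05). It summed to 1416 to 2699 FPKM in LMA, against 2534, 84989 and 208 FPKM in N. With N values so far apart, the lack of calls does not show that the list was unchanged.

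Promoters of the neutrophil precursor genes are shown because the members rose together. The letters GAGGAAGT, a site of the type bound by ETS factors such as PU.1, were searched on both strands from 250 bases before to 50 bases after each start site in RefSeq promoters of GRCm38.p6. They were found in 3.2% of 32851 promoters, and in 5 of the 14 members that had a promoter sequence (Mmp8, Mpo, Elane, Olfm4 and Prtn3). Capitals mark the match. A member was counted if any of its promoters held the letters, whereas the share is per promoter, so the units differ. A match describes letters and not a bound site.
Elane (chr10:79886187-79886274, strand +): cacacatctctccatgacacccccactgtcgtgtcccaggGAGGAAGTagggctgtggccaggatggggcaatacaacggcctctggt
Prtn3 (chr10:79879532-79879619, strand +): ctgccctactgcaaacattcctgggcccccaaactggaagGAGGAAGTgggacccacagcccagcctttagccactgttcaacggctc
Mpo (chr11:87793534-87793607, strand +): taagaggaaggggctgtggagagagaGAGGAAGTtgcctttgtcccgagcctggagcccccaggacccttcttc
In Elane, neutrophil elastase, the match began 85 bases before the start site, in Prtn3 95 bases and in Mpo, myeloperoxidase, 224 bases before it.

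With all libraries, every cytokine that was called was higher in LMA. Of 18 tested, 9 were called higher and none lower (0 at an unadjusted p below 0.05), and the count was 7 when N 1 was left out, 6 when N 2 was, 10 when N 3 was and 8 with N 3 as the only N library (median log2 fold change with all libraries 0.73), while 6 were called lower when N 3 was left out. Il10, a cytokine that restrains macrophages and T cells, was at 16.2 to 18.4 FPKM in LMA (median 17.3), against 0.501, 0.417 and 0.292 FPKM in N (log2 fold change 4.304 ± 0.11 SE, adjusted p = 8.0e-14). Csf3, the growth factor of granulocytes, was at 3.07 to 4.05 FPKM in LMA (median 3.92), against 0.06002, 0.0208 and 0 FPKM in N (log2 fold change 2.997 ± 0.11 SE, adjusted p = 3.6e-11). Il33, an alarmin of the interleukin-1 family, was at 2.14 to 2.94 FPKM in LMA (median 2.37), against 0.0214, 0.0254 and 0.00948 FPKM in N (log2 fold change 2.49 ± 0.13 SE, adjusted p = 1.9e-09). LMA libraries exceeded N libraries in all 3 genes, with the N values under 1 FPKM. Il27, a dimeric cytokine subunit of activated macrophages, was at 2.33 to 2.89 FPKM in LMA with a median of 2.65, and at 0.271, 0.3403 and 1.02 FPKM in N (log2 fold change 1.64 ± 0.23 SE, adjusted p = 6.9e-05). Il6, an inducer of the acute phase, was at 0.757 to 1.46 FPKM in LMA with a median of 1.21, and at 0.108, 0.0425 and 0.0186 FPKM in N (log2 fold change 1.52 ± 0.21 SE, adjusted p = 6.4e-05). Il18, a substrate of caspase 1, was at 13.95 to 16.3 FPKM in LMA with a median of 14.6, and at 8.17, 11.3 and 8.86 FPKM in N (log2 fold change 0.63 ± 0.099 SE, adjusted p = 1.7e-04). Of these Il18 had the smallest change and the highest N values. Tnf and Vegfa were near N 3 and far above N 1 and N 2. Tnf, tumor necrosis factor, was at 27.8 to 32.5 FPKM in LMA (median 29.4), against 4.73, 4.41 and 23.5 FPKM in N (log2 fold change 1.82 ± 0.58 SE, adjusted p = 0.0229). Vegfa, the growth factor of vessels, was at 24.2 to 26.8 FPKM in LMA (median 24.6), against 1.31, 0.978 and 24.3 FPKM in N (log2 fold change 2.66 ± 0.94 SE, adjusted p = 0.0382). The Vegfa value of N 3 was within the LMA range. Il1b, interleukin-1β, was at 12.6 to 18.4 FPKM in LMA (median 16.5), against 51.6, 34.9 and 2.49 FPKM in N (adjusted p = 0.869), with LMA between the N libraries. Tnf missed the threshold without N 1 (adjusted p = 0.13) or without N 2 (adjusted p = 0.132). Vegfa was not called without any 1 of LMA 1, LMA 2, LMA 3, LMA 4, LMA 5, LMA 6, N 1 and N 2 (adjusted p from 0.0555 to 0.206).

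Among chemokines, 7 of 17 tested were called higher and none lower (1 at an unadjusted p below 0.05), and the count was 5 when N 1 was left out, 5 when N 2 was, 8 when N 3 was and 4 with N 3 as the only N library (median log2 fold change with all libraries 1.05), while 3 were called lower when N 3 was left out. The share called higher with all libraries was 41.2%, against 13.6% of all genes tested. The macrophage chemokines stood out by level. Ccl3, which draws monocytes and T cells, was at 617 to 696 FPKM in LMA (median 653), against 11.1, 8.15 and 115 FPKM in N (log2 fold change 4.85 ± 0.94 SE, adjusted p = 0.00102). Ccl4, a chemokine of the same family, was at 154 to 171 FPKM in LMA (median 157), against 4.76, 4.56 and 19.05 FPKM in N (log2 fold change 4.32 ± 0.47 SE, adjusted p = 5.4e-06). N 3 was the highest N library for both. Ccl9, a mouse chemokine of macrophages, was at 148 to 165 FPKM in LMA with a median of 158, and at 3.81, 3.66 and 64.3 FPKM in N (log2 fold change 3.899 ± 0.96 SE, adjusted p = 0.00561). Ccl7, a ligand of CCR2, was at 2.05 to 3.05 FPKM in LMA with a median of 2.46, and at 0, 0.0979 and 0.308 FPKM in N (log2 fold change 2.25 ± 0.17 SE, adjusted p = 1.3e-07). Cxcl2, a ligand of the neutrophil receptor CXCR2, was at 16.3 to 19.4 FPKM in LMA with a median of 18.5, and at 2.33, 0.349 and 2.16 FPKM in N (log2 fold change 3.33 ± 0.65 SE, adjusted p = 0.00105). All LMA libraries lay above all N libraries here. Ccl5, a chemokine of T and NK cells, was at 31.3 to 37.5 FPKM in LMA (median 33.4), against 82.1, 59.9 and 1.24 FPKM in N (adjusted p = 0.548), between the N libraries. None of the 18 chemokine receptors tested was called in either direction with all libraries (1 higher and 0 lower at an unadjusted p below 0.05), and 1 was called higher on a TPM scale. Without N 3, 11 of them were called lower, and with N 3 as the only N library 4 were called higher.

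The promoter of Cxcl2 and that of Il6 are shown because both genes rose and both are known targets of NF-κB. The searched letters GGGNNTTTCC, a κB type of site on either strand, were found in 1.63% of 32851 promoters of the same window, in 2 of the 4 called chemokines with a promoter sequence (Cxcl2 and Ccl9), in none of 7 chemokines not called, in 1 of 5 called cytokines (Il6) and in 2 of 7 cytokines not called. Genes were again counted by any of their promoters, while the share is per promoter. Capitals mark the match, and the sequences are from RefSeq on GRCm38.p6.
Cxcl2 (chr5:90903762-90903851, strand +): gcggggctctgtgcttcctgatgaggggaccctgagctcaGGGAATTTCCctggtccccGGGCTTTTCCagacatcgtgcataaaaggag
Il6 (chr5:30013030-30013119, strand +): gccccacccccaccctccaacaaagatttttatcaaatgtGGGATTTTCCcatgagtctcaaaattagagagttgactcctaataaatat
Cxcl2 holds 2 matches, which began 97 and 78 bases before the start site, and the match in Il6 began 44 bases before it.

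Acute phase and secreted defence genes were called higher in part. Of 12 tested members 6 were called higher, none lower (0 at an unadjusted p below 0.05), and the count was 7 when N 1 was left out, 6 when N 2 was, 5 when N 3 was and 9 with N 3 as the only N library (median log2 fold change with all libraries 1.46), while 3 were called lower when N 3 was left out. Wfdc21, a secreted protein of the whey acidic protein family, was at 11.9 to 15.5 FPKM in LMA (median 13.6), against 0.198, 1.63 and 0.101 FPKM in N (log2 fold change 3.87 ± 0.34 SE, adjusted p = 6.1e-07). Orm1, the orosomucoid of plasma, was at 0.763 to 2.18 FPKM in LMA (median 1.41), against 0.215, 0.179 and 0 FPKM in N (log2 fold change 1.59 ± 0.25 SE, adjusted p = 1.8e-04). LMA and N did not overlap. Serpina3g, a protease inhibitor of T cells and macrophages, was at 4.73 to 6.82 FPKM in LMA (median 5.85), against 35.2, 27.9 and 0.4000 FPKM in N (adjusted p = 0.622), with LMA far under N 1 and N 2 and above N 3. Of the enzymes of prostaglandin synthesis 2 were called higher and Ptgs1 lower, and Hpgd, which breaks prostaglandins down, is among the largest falls above. Ptgs2, cyclooxygenase 2, was at 91.8 to 103 FPKM in LMA (median 95.1), against 3.95, 0.856 and 6.11 FPKM in N (log2 fold change 4.82 ± 0.52 SE, adjusted p = 5.3e-06). Ptges, the synthase after it, was at 1.28 to 1.76 FPKM in LMA (median 1.600), against 0.0724, 0.154 and 0.252 FPKM in N (log2 fold change 1.64 ± 0.14 SE, adjusted p = 7.1e-07). Ptgs1, cyclooxygenase 1, was at 5.302 to 6.399 FPKM in LMA (median 6.17), against 6.68, 8.17 and 10.5 FPKM in N (log2 fold change -0.44 ± 0.13 SE, adjusted p = 0.0168). In the eicosanoid list as a whole, 2 of 18 members were called higher and 2 lower. That is 11.1% each, against 13.6% and 21.9% of all genes tested, and without N 3 the counts were 6 and 4. Ptgs1 missed the threshold without N 3 (adjusted p = 0.0692), on a TPM scale (adjusted p = 0.103) or on quantile-normalized values (adjusted p = 0.0678).

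Some enzymes that activated macrophages use on arginine and itaconate were called higher, 38.5% of those tested, against 13.6% of all genes tested. For the matrix and proteolysis list below the share was 38.1%. The list had 5 of 13 tested members called higher and none lower (1 at an unadjusted p below 0.05), and the 5 held with each library left out; without both N 1 and N 2 the count was 3. Irg1, also named Acod1, makes itaconate and was at 32.9 to 37.4 FPKM in LMA (median 34.6), against 0.212, 0.528 and 2.86 FPKM in N (log2 fold change 4.71 ± 0.502 SE, adjusted p = 5.0e-06). Nos2, the inducible nitric oxide synthase, was at 19.6 to 21.9 FPKM in LMA (median 20.4), against 0.154, 0.0607 and 3.08 FPKM in N (log2 fold change 4.27 ± 0.62 SE, adjusted p = 8.7e-05). Odc1, the first enzyme of polyamine synthesis, was at 119 to 135 FPKM in LMA (median 128), against 27.6, 78.3 and 64.4 FPKM in N (log2 fold change 1.29 ± 0.22 SE, adjusted p = 3.5e-04). Sat1, which acetylates polyamines, was at 163 to 189 FPKM in LMA (median 184), against 83.4, 92.4 and 122 FPKM in N (log2 fold change 0.87 ± 0.14 SE, adjusted p = 1.7e-04). All 4 were above every N library. In the matrix and proteolysis list 8 of 21 were called higher and none lower (0 at an unadjusted p below 0.05), and the count was 5 when N 1 was left out, 5 when N 2 was, 9 when N 3 was and 7 with N 3 as the only N library (median log2 fold change with all libraries 0.81), while 3 were called lower when N 3 was left out. Adam8, a membrane protease of myeloid cells, was at 209 to 239 FPKM in LMA with a median of 221, and at 8.62, 5.67 and 66.9 FPKM in N (log2 fold change 3.84 ± 0.81 SE, adjusted p = 0.00194). Mmp19, a matrix metalloprotease, was at 3.67 to 4.42 FPKM in LMA with a median of 4.27, and at 0.671, 0.8599 and 2.24 FPKM in N (log2 fold change 1.51 ± 0.24 SE, adjusted p = 2.0e-04). N 3 lay nearest to LMA in both genes.

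With all libraries, more receptors of myeloid cells were called higher than lower. The shares were 30.4% and 4.35% of C-type lectins and related receptors, against 13.6% and 21.9% of all genes tested. They were 33.3% and 5.56% of Fc and complement genes. Of C-type lectins and related receptors, 7 of 23 were called higher and 1 lower, and the higher count was 6 when N 1 was left out, 6 when N 2 was, 12 when N 3 was and 6 with N 3 as the only N library (median log2 fold change with all libraries 0.87), while 9 were called lower when N 3 was left out. Trem3, an activating receptor of the TREM family, was at 6.997 to 10.4 FPKM in LMA (median 10.1), against 2.12, 2.53 and 2.49 FPKM in N (log2 fold change 1.801 ± 0.13 SE, adjusted p = 9.7e-08). Clec4d, a lectin that senses mycobacterial glycolipids, was at 93.1 to 98.6 FPKM in LMA (median 95.4), against 3.97, 2.97 and 64.8 FPKM in N (log2 fold change 3.26 ± 1.01 SE, adjusted p = 0.0212). The first had even N values, and the second was high in N 3. Cd300a, an inhibitory receptor, was at 3.62 to 4.09 FPKM in LMA (median 3.98), against 8.64, 7.04 and 11.2 FPKM in N (log2 fold change -1.08 ± 0.17 SE, adjusted p = 1.7e-04). Of Fc and complement receptors and components, 6 of 18 were called higher and 1 lower, and the higher count was 5 when N 1 was left out, 4 when N 2 was, 7 when N 3 was and 4 with N 3 as the only N library (median log2 fold change with all libraries 0.401), while 6 were called lower when N 3 was left out. C3ar1, the receptor for C3a, was at 11.03 to 12.3 FPKM in LMA with a median of 11.99, and at 0.186, 0.201 and 3.63 FPKM in N (log2 fold change 3.29 ± 0.64 SE, adjusted p = 0.00103). Fcgr1, the high affinity IgG receptor, was at 19.3 to 21.7 FPKM in LMA with a median of 20.7, and at 1.72, 1.47 and 9.78 FPKM in N (log2 fold change 2.56 ± 0.54 SE, adjusted p = 0.00195). N 3 stood between N 1 and N 2 on one side and LMA on the other. Clec4d was not called without N 1 (adjusted p = 0.12) or without N 2 (adjusted p = 0.131).

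Among receptors for lipids, nucleotides and metabolites, 8 of 28 were called higher and 3 lower, and the higher count was 7 when N 1 was left out, 7 when N 2 was, 7 when N 3 was and 7 with N 3 as the only N library (median log2 fold change with all libraries -0.73), while 17 were called lower when N 3 was left out. The shares with all libraries were 28.6% higher and 10.7% lower, against 13.6% and 21.9% of all genes tested. The 3 that fell were receptors of white cells for lipids. Gpr183, which guides B cells by oxysterols, was at 8.95 to 10.4 FPKM in LMA (median 9.57), against 18.5, 17.3 and 19.3 FPKM in N (log2 fold change -0.91 ± 0.089 SE, adjusted p = 2.4e-06). Lpar6, a lysophosphatidic acid receptor like Lpar5, was at 1.52 to 1.95 FPKM in LMA (median 1.72), against 4.75, 4.39 and 4.91 FPKM in N (log2 fold change -1.23 ± 0.093 SE, adjusted p = 1.5e-07). Their N values were close to each other and above all LMA values. Ptgir, the prostacyclin receptor, was at 2.49 to 3.46 FPKM in LMA (median 3.21), against 0.8297, 0.7503 and 1.27 FPKM in N (log2 fold change 1.33 ± 0.17 SE, adjusted p = 2.5e-05). P2ry2, a receptor for extracellular ATP and UTP, was at 2.17 to 3.04 FPKM in LMA (median 2.77), against 0.522, 0.662 and 1.41 FPKM in N (log2 fold change 1.29 ± 0.19 SE, adjusted p = 9.5e-05). Hcar2, the receptor for niacin and ketone bodies, was at 8.13 to 9.28 FPKM in LMA (median 8.78), against 5.33, 5.22 and 2.67 FPKM in N (log2 fold change 0.96 ± 0.18 SE, adjusted p = 7.9e-04).

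With all libraries, more adhesion genes were called higher than lower. Of 22 adhesion genes 6 were called higher, including Itgam under both of its gene entries, and 2 lower. The shares were 27.3% and 9.09%, against 13.6% and 21.9% of all genes tested. Itgb2, the β chain of the leukocyte integrins, was at 171 to 184 FPKM in LMA (median 179), against 107, 87.4 and 69.3 FPKM in N (log2 fold change 1.04 ± 0.11 SE, adjusted p = 4.0e-06). Itga5, the α chain of the fibronectin receptor, was at 42.6 to 48.1 FPKM in LMA (median 46.00), against 1.46, 2.09 and 11.3 FPKM in N (log2 fold change 3.56 ± 0.58 SE, adjusted p = 2.4e-04). Cd44, the receptor for hyaluronan, was at 77.7 to 86.6 FPKM in LMA (median 82.3), against 56.5, 56.1 and 57.3 FPKM in N (log2 fold change 0.53 ± 0.055 SE, adjusted p = 3.8e-06). LMA was above N in each. Icam1, the ligand of the leukocyte integrins, was at 6.12 to 7.45 FPKM in LMA with a median of 6.53, and at 24.99, 15.5 and 13.4 FPKM in N (log2 fold change -1.34 ± 0.14 SE, adjusted p = 3.7e-06). Itga4, the α chain of VLA-4, was at 26.03 to 28.3 FPKM in LMA with a median of 26.7, and at 61.9, 55.2 and 247 FPKM in N (log2 fold change -1.797 ± 0.502 SE, adjusted p = 0.0119). Both were below all N libraries, with Itga4 highest in N 3. Without N 3 the count of lower members was 11. Itga4 missed the threshold without N 3 (adjusted p = 0.0522).

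Cytokine receptors gave 4 members called higher and 5 lower among 33, which is 12.1% and 15.2%, against 13.6% and 21.9% of all genes tested. Ifnar2, a chain of the type I interferon receptor, was at 42.1 to 49.9 FPKM in LMA (median 45.03), against 23.05, 32.5 and 35.04 FPKM in N (log2 fold change 0.61 ± 0.103 SE, adjusted p = 3.1e-04). Il1r2, the decoy receptor for interleukin-1, was at 2.61 to 4.29 FPKM in LMA (median 3.21), against 2.08, 0.116 and 0.0169 FPKM in N (log2 fold change 1.9995 ± 0.43 SE, adjusted p = 0.00206). Tgfbr2, the type II receptor for TGF-β, was at 19.8 to 21.5 FPKM in LMA (median 21.1), against 62.4, 53.7 and 36.96 FPKM in N (log2 fold change -1.23 ± 0.16 SE, adjusted p = 3.1e-05). Il6ra, the α chain of the interleukin-6 receptor, was at 7.48 to 9.02 FPKM in LMA (median 8.27), against 19.4, 15.2 and 12.01 FPKM in N (log2 fold change -0.86 ± 0.14 SE, adjusted p = 2.3e-04). Both of these fell below all N libraries. Without N 3 the count of lower members was 23. In the TNF superfamily 6 of 32 were called higher and none lower (2 at an unadjusted p below 0.05), a count that was 1 when N 1 was left out, 1 when N 2 was, 8 when N 3 was and 2 with N 3 as the only N library (median log2 fold change with all libraries -0.66), while 19 were called lower when N 3 was left out. On quantile-normalized values 5 were called lower. With all libraries 18.75% were called higher, against 13.6% of all genes tested. Tnfrsf9, the costimulatory receptor 4-1BB, was at 8.26 to 10.7 FPKM in LMA with a median of 8.94, and at 3.17, 3.09 and 5.52 FPKM in N (log2 fold change 1.17 ± 0.25 SE, adjusted p = 0.00194). Tnfrsf12a, the receptor of TWEAK, was at 7.005 to 9.14 FPKM in LMA with a median of 7.87, and at 1.92, 1.02 and 5.45 FPKM in N (log2 fold change 1.58 ± 0.45 SE, adjusted p = 0.0134). N 3 was the highest N library for both. Tnfrsf12a was not called without N 1 (adjusted p = 0.0613) or without N 2 (adjusted p = 0.106).

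Some of the first transcription factors to answer a stimulus were called higher in LMA, 46.2% of those tested, against 13.6% of all genes tested. Of 26 immediate early genes 12 were called higher and none lower (0 at an unadjusted p below 0.05), and the count was 11 when N 1 was left out, 5 when N 2 was, 11 when N 3 was and 12 with N 3 as the only N library (median log2 fold change with all libraries 0.74), while 6 were called lower when N 3 was left out. Klf6, a zinc finger factor of this kind, was at 61.1 to 66.9 FPKM in LMA (median 65.8), against 45.8, 28.7 and 23.4 FPKM in N (log2 fold change 1.03 ± 0.14 SE, adjusted p = 4.3e-05). Fosl1, an AP-1 subunit, was at 3.099 to 3.56 FPKM in LMA (median 3.24), against 0.603, 0.246 and 1.23 FPKM in N (log2 fold change 1.75 ± 0.27 SE, adjusted p = 1.4e-04). Maff, a small MAF protein, was at 4.62 to 5.38 FPKM in LMA (median 4.78), against 1.05, 0.394 and 2.23 FPKM in N (log2 fold change 1.7997 ± 0.34 SE, adjusted p = 8.0e-04). LMA was above all N libraries in each of them. Atf3, a stress-induced factor of the CREB family, was at 67.3 to 74.2 FPKM in LMA with a median of 72.5, and at 3.38, 1.31 and 24.2 FPKM in N (log2 fold change 3.69 ± 0.94 SE, adjusted p = 0.00698). Jun, the AP-1 subunit c-Jun, was at 58.2 to 74.8 FPKM in LMA with a median of 71.7, and at 54.9, 37.9 and 17.4 FPKM in N (log2 fold change 1.06 ± 0.24 SE, adjusted p = 0.00322). N 3 was the highest N library for Atf3 and the lowest for Jun. Fos itself was at 113 to 152 FPKM in LMA (median 147), against 151, 78.9 and 48.2 FPKM in N (log2 fold change 0.76 ± 0.24 SE, adjusted p = 0.0222), with N 1 inside the LMA range. Atf3 missed the threshold without N 2 (adjusted p = 0.0592). Fos was not called without N 2 (adjusted p = 0.0804), without N 3 (adjusted p = 0.109) or on quantile-normalized values (adjusted p = 0.0698).

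Feedback inhibitors of NF-κB and MAP kinases rose in part. The shares called higher and lower were 28.6% and 4.76% of NF-κB genes, against 13.6% and 21.9% of all genes tested. They were 33.3% and 5.56% of MAP kinase regulators. Of 21 NF-κB genes 6 were called higher and 1 lower, and the higher count was 5 when N 1 was left out, 3 when N 2 was, 4 when N 3 was and 7 with N 3 as the only N library (median log2 fold change with all libraries 0.04), while 9 were called lower when N 3 was left out. Nfkbia, the inhibitor IκBα, was at 114 to 126 FPKM in LMA (median 122), against 72.7, 54.8 and 36.9 FPKM in N (log2 fold change 1.195 ± 0.15 SE, adjusted p = 1.9e-05). Nfkbiz, the nuclear protein IκBζ, was at 21.3 to 29.1 FPKM in LMA (median 26.3), against 13.4, 6.32 and 2.89 FPKM in N (log2 fold change 1.94 ± 0.305 SE, adjusted p = 1.7e-04). Both were above every N library, with N 1 nearest. Of 18 regulators of MAP kinases 6 were called higher and 1 lower, or 7 and 4 without N 3. Dusp4, a phosphatase of nuclear MAP kinases, was at 17.9 to 20.7 FPKM in LMA (median 19.1), against 4.099, 1.82 and 7.52 FPKM in N (log2 fold change 2.16 ± 0.39 SE, adjusted p = 5.2e-04). Gadd45g, an activator of the p38 and JNK routes, was at 5.57 to 7.36 FPKM in LMA (median 6.77), against 2.34, 3.67 and 1.73 FPKM in N (log2 fold change 1.26 ± 0.15 SE, adjusted p = 1.5e-05). Mapk14, the kinase p38α, was at 18.1 to 19.6 FPKM in LMA (median 19.2), against 38.6, 34.4 and 25.4 FPKM in N (log2 fold change -0.75 ± 0.11 SE, adjusted p = 9.9e-05). Only the last of these 3 was lower in LMA.

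Toll-like receptors and their adaptors had more calls of a fall than of a rise. Of 25 tested, 11 were called lower and 3 higher, against 21.9% called lower among all genes tested, and the count of lower ones was 7 when N 1 was left out, 9 when N 2 was, 15 when N 3 was and 6 with N 3 as the only N library (median log2 fold change with all libraries -0.499). Tlr7, a receptor for single-stranded RNA, was at 5.97 to 7.05 FPKM in LMA (median 6.67), against 17.6, 11.02 and 35.1 FPKM in N (log2 fold change -1.46 ± 0.396 SE, adjusted p = 0.0101). Tlr13, a mouse receptor for bacterial ribosomal RNA, was at 3.03 to 3.76 FPKM in LMA (median 3.48), against 4.78, 6.51 and 11.1 FPKM in N (log2 fold change -0.94 ± 0.21 SE, adjusted p = 0.0027). Both were highest in N 3. Irak1, a kinase behind the receptors, was at 14.95 to 20.5 FPKM in LMA with a median of 18.1, and at 36.6, 31.7 and 26.5 FPKM in N (log2 fold change -0.79 ± 0.11 SE, adjusted p = 5.1e-05). Tirap, an adaptor of TLR2 and TLR4, was at 3.38 to 3.91 FPKM in LMA with a median of 3.63, and at 6.09, 5.33 and 7.35 FPKM in N (log2 fold change -0.696 ± 0.14 SE, adjusted p = 0.00113). Irf3, the factor behind TLR3 and TLR4 that drives interferon-β, was at 10.8 to 12.3 FPKM in LMA with a median of 11.7, and at 46.4, 33.7 and 14.7 FPKM in N (log2 fold change -1.26 ± 0.28 SE, adjusted p = 0.00274). LMA was below all N libraries in all 3. Ticam1, the adaptor TRIF, was at 10.4 to 12.04 FPKM in LMA (median 11.6), against 9.64, 7.03 and 7.93 FPKM in N (log2 fold change 0.48 ± 0.09 SE, adjusted p = 8.1e-04) and went the other way.

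Further signalling lists are read against the 21.9% of all genes tested that were called lower and the 13.6% called higher. In the TGF-β and SMAD list 7 of 13 were called lower and 2 higher, a count of lower members that was 3 when N 1 was left out, 3 when N 2 was, 9 when N 3 was and 0 with N 3 as the only N library (median log2 fold change with all libraries -0.35), and 3 on a median-of-ratios scale. Smurf2, a ubiquitin ligase that removes SMAD proteins, was at 4.896 to 7.72 FPKM in LMA (median 6.85), against 13.2, 13.4 and 9.41 FPKM in N (log2 fold change -0.81 ± 0.16 SE, adjusted p = 9.4e-04). Skil, a repressor of SMAD targets, was at 3.65 to 4.09 FPKM in LMA (median 3.79), against 10.5, 7.77 and 5.04 FPKM in N (log2 fold change -0.88 ± 0.18 SE, adjusted p = 0.00184). Smad5, a SMAD of the BMP branch, was at 4.17 to 5.24 FPKM in LMA (median 4.54), against 5.99, 7.04 and 6.53 FPKM in N (log2 fold change -0.45 ± 0.104 SE, adjusted p = 0.00361). All LMA values lay below all N values. The members that moved were thus inhibitors as well as transducers of the route. In the STAT and SOCS list 5 of 20, near the share over all genes, were lower and 1 higher, and the count of lower ones was 5 when N 1 was left out, 4 when N 2 was, 11 when N 3 was and 1 with N 3 as the only N library (median log2 fold change with all libraries -0.48). Socs5, a suppressor of cytokine signals, was at 3.83 to 4.71 FPKM in LMA with a median of 4.48, and at 7.59, 8.43 and 7.72 FPKM in N (log2 fold change -0.78 ± 0.076 SE, adjusted p = 2.0e-06). Stat6, the factor behind interleukin-4, was at 29.99 to 33.1 FPKM in LMA with a median of 32.6, and at 52.8, 41.1 and 37.5 FPKM in N (log2 fold change -0.42 ± 0.085 SE, adjusted p = 0.00133). Socs3, the suppressor that limits signals of interleukin-6 and G-CSF, was at 41.01 to 45.96 FPKM in LMA with a median of 43.2, and at 17.5, 12.2 and 2.13 FPKM in N (log2 fold change 2.38 ± 0.49 SE, adjusted p = 0.00157) and was the 1 member called higher.

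Of 31 myeloid transcription factors 10 were called higher and 3 lower, and the counts of higher ones were 8 when N 1 was left out, 8 when N 2 was, 11 when N 3 was and 3 with N 3 as the only N library (median log2 fold change with all libraries -0.0069), while 13 were called lower when N 3 was left out. Bhlhe40, a repressor of Il10 in T cells and macrophages, was at 24.9 to 28.2 FPKM in LMA (median 26.7), against 16.8, 9.67 and 15.35 FPKM in N (log2 fold change 0.95 ± 0.15 SE, adjusted p = 1.7e-04). Cebpd, an acute phase factor, was at 6.64 to 7.74 FPKM in LMA (median 7.27), against 5.11, 5.25 and 3.91 FPKM in N (log2 fold change 0.56 ± 0.09 SE, adjusted p = 2.2e-04). Cebpb, its relative in emergency granulopoiesis, was at 20.6 to 23.7 FPKM in LMA (median 22.7), against 13.7, 8.67 and 12.3 FPKM in N (log2 fold change 0.95 ± 0.197 SE, adjusted p = 0.00169). LMA was above N throughout. Runx1, a factor of blood stem cells and lymphocytes, was at 7.17 to 8.66 FPKM in LMA (median 7.76), against 14.1, 10.1 and 14.2 FPKM in N (log2 fold change -0.66 ± 0.18 SE, adjusted p = 0.00971), below N. The shares of myeloid factors were 32.3% higher and 9.68% lower, against 13.6% and 21.9% of all genes tested. Of 23 lymphoid factors only Bcl6 was called (4.35% higher). This factor of germinal center B cells and follicular helper T cells was at 19.6 to 21.1 FPKM in LMA with a median of 20.5, and at 14.4, 13.9 and 9.13 FPKM in N (log2 fold change 0.72 ± 0.15 SE, adjusted p = 0.00145). Without N 3, 19 of the lymphoid factors were called lower. Runx1 missed the threshold without N 1 (adjusted p = 0.0558) or on a TPM scale (adjusted p = 0.0528).

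Genes of the integrated stress response, a route that slows translation through eIF2 and induces genes under ATF4, were higher in part. The share called higher was 48.0%, against 13.6% of all genes tested. Of 25 genes 12 were called higher and none lower (0 at an unadjusted p below 0.05), and the count was 7 when N 1 was left out, 8 when N 2 was, 18 when N 3 was and 7 with N 3 as the only N library (median log2 fold change with all libraries 0.81). Atf4, the factor translated when eIF2 is phosphorylated, was at 139 to 152 FPKM in LMA (median 147), against 72.03, 76.1 and 87.7 FPKM in N (log2 fold change 0.901 ± 0.0995 SE, adjusted p = 6.9e-06). Trib3, a pseudokinase that restrains it, was at 5.81 to 7.31 FPKM in LMA (median 6.57), against 0.396, 0.656 and 1.82 FPKM in N (log2 fold change 2.39 ± 0.33 SE, adjusted p = 5.1e-05). Sesn2, a leucine sensor, was at 7.11 to 8.03 FPKM in LMA (median 7.76), against 4.44, 4.95 and 5.74 FPKM in N (log2 fold change 0.57 ± 0.083 SE, adjusted p = 9.7e-05). LMA was above N in each. Nupr1, a small chromatin protein of stressed cells, was at 42.96 to 58.9 FPKM in LMA with a median of 56.6, and at 1.05, 1.11 and 20.3 FPKM in N (log2 fold change 3.88 ± 0.96 SE, adjusted p = 0.0055). Chac1, which degrades glutathione, was at 2.65 to 3.35 FPKM in LMA with a median of 2.99, and at 0.279, 0.383 and 2.28 FPKM in N (log2 fold change 1.497 ± 0.41 SE, adjusted p = 0.0109). Asns, asparagine synthetase, was at 67.8 to 74.7 FPKM in LMA with a median of 71.9, and at 0.678, 21.3 and 59.5 FPKM in N (log2 fold change 2.64 ± 0.81 SE, adjusted p = 0.0194). N 3 was nearer to LMA than N 1 and N 2 in these, and N 1 was almost without Asns. Of 7 further members the LMA values lay between N 3 as the highest and the other N libraries. Chac1 was not called without N 1 (adjusted p = 0.0843) or without N 2 (adjusted p = 0.0703). Asns missed the threshold without N 1 (adjusted p = 0.117).

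Promoters of Asns, Chac1 and Nupr1 are shown because each holds the letters TGATGNAA, the C/EBP-ATF response element to which ATF4 dimers are known to bind. The letters were found on either strand in 3.97% of 32851 RefSeq promoters of GRCm38.p6, in 4 of the 11 called members of the list with a promoter sequence (Asns, Chac1, Nupr1 and Trib3) and in 2 of 11 not called. Here too a member was counted by any of its promoters, while the share is per promoter. Capitals mark the match, read on the strand of the gene.
Asns (chr6:7693185-7693272, strand -): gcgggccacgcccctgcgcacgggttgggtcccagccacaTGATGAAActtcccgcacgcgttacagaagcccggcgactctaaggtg
Chac1 (chr2:119351009-119351096, strand +): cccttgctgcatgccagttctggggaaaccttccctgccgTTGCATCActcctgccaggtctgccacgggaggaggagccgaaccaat
Nupr1 (chr7:126625533-126625620, strand -): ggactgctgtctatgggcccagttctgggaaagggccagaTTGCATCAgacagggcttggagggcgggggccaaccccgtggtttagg
The match began 23 bases before the start site of Asns, 110 before that of Nupr1 and 193 before that of Chac1, on the opposite strand in Nupr1 and Chac1.

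Iron, metal and redox genes were called in part, 31.25% higher and 9.38% lower, against 13.6% and 21.9% of all genes tested. Of 32 tested 10 were called higher and 3 lower, and the count of higher ones was 9 when N 1 was left out, 10 when N 2 was, 17 when N 3 was and 7 with N 3 as the only N library (median log2 fold change with all libraries 0.65). Fth1, the heavy chain of ferritin, which like the light chain has processed pseudogenes that can share its reads, was at 3533 to 3891 FPKM in LMA (median 3718), against 612, 973 and 1528 FPKM in N (log2 fold change 1.93 ± 0.23 SE, adjusted p = 1.4e-05). Ftl1, the light chain, was at 3487 to 3799 FPKM in LMA (median 3657), against 746, 1131 and 2274 FPKM in N (log2 fold change 1.55 ± 0.31 SE, adjusted p = 0.00131). Slc11a1, the phagosomal metal pump of macrophages, was at 30.1 to 42.6 FPKM in LMA (median 36.9), against 13.7, 10.8 and 11.1 FPKM in N (log2 fold change 1.596 ± 0.098 SE, adjusted p = 1.7e-08). Each was above every N library, and N 3 was the highest N library for both ferritin chains. Sqstm1, the autophagy receptor p62, was at 149.6 to 160.2 FPKM in LMA with a median of 155, and at 77.4, 81.9 and 81.4 FPKM in N (log2 fold change 0.95 ± 0.056 SE, adjusted p = 1.0e-08). Prdx5, a peroxidase, was at 93.98 to 106 FPKM in LMA with a median of 101, and at 37.99, 32.7 and 43.01 FPKM in N (log2 fold change 1.403 ± 0.14 SE, adjusted p = 2.1e-06). Keap1, the sensor that holds NRF2, was at 11.2 to 11.99 FPKM in LMA with a median of 11.5, and at 15.1, 16.03 and 17.5 FPKM in N (log2 fold change -0.47 ± 0.066 SE, adjusted p = 5.8e-05). Keap1 was the one of these that fell. Hmox1, heme oxygenase 1, also a marker of red pulp macrophages, was at 264 to 283 FPKM in LMA (median 274), against 129.7, 138 and 61.3 FPKM in N (log2 fold change 1.4000 ± 0.25 SE, adjusted p = 5.8e-04). The other markers of these macrophages did not follow it as a set. Of 16 tested, 2 were called higher (12.5%, against 13.6% of all genes tested) and none lower. In 14 of the 16 the LMA values lay between the N libraries with N 3 lowest, and 12 were called lower without N 3.

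Some lysosomal and lipid genes of macrophages were called higher, and more of them without N 3 than with it. In both lists the share called higher with all libraries was above the 13.6% of all genes tested. The counts without N 3 have to be read against the rise over all 11436 genes tested. Of these, 1553 were called higher with all libraries and 3175 without N 3. Of 30 lysosomal genes 12 were called higher and none lower (1 at an unadjusted p below 0.05), and the count was 4 when N 1 was left out, 4 when N 2 was, 20 when N 3 was and 4 with N 3 as the only N library (median log2 fold change with all libraries 0.76), while 3 were called lower when N 3 was left out. Ctsd, an aspartic protease, was at 616 to 688 FPKM in LMA (median 661), against 112, 134 and 245 FPKM in N (log2 fold change 2.09 ± 0.24 SE, adjusted p = 1.0e-05). Ctsb, a cysteine protease, was at 380.4 to 408 FPKM in LMA (median 399), against 86.1, 125 and 195 FPKM in N (log2 fold change 1.62 ± 0.21 SE, adjusted p = 2.7e-05). In both the order was LMA, N 3 and then N 1 and N 2. Of 19 genes of lipid-laden macrophages 8 were called higher and none lower (0 at an unadjusted p below 0.05), and the count was 4 when N 1 was left out, 3 when N 2 was, 14 when N 3 was and 2 with N 3 as the only N library (median log2 fold change with all libraries 1.91). Cd36, a scavenger receptor for fatty acids, was at 116 to 129 FPKM in LMA with a median of 126, and at 24.3, 44.6 and 32.6 FPKM in N (log2 fold change 1.91 ± 0.15 SE, adjusted p = 2.8e-07). Plin2, a coat protein of lipid droplets, was at 39.6 to 45.3 FPKM in LMA with a median of 42.3, and at 9.33, 13.6 and 24.02 FPKM in N (log2 fold change 1.501 ± 0.24 SE, adjusted p = 2.1e-04). Msr1, a scavenger receptor, was at 119 to 132 FPKM in LMA with a median of 123, and at 1.14, 0.773 and 34.2 FPKM in N (log2 fold change 4.903 ± 1.16 SE, adjusted p = 0.00414). Spp1, osteopontin, a secreted matrix protein, was at 6235 to 6966 FPKM in LMA (median 6549), against 0.316, 0.2104 and 943 FPKM in N (log2 fold change 9.65 ± 2.57 SE, adjusted p = 0.009), with N 3 far above N 1 and N 2 and below LMA. Spp1 was not called without N 1 (adjusted p = 0.0653) or without N 2 (adjusted p = 0.0652).

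Genes of sugar and sterol metabolism were higher in part. The shares called higher were 29.2% for glycolysis, 38.9% for hypoxia targets and 24.0% for cholesterol, against 13.6% of all genes tested. Of 24 glycolytic genes 7 were called higher and none lower (0 at an unadjusted p below 0.05), and the count was 4 when N 1 was left out, 4 when N 2 was, 19 when N 3 was and 1 with N 3 as the only N library (median log2 fold change with all libraries 1.804), and 11 on a median-of-ratios scale. Pfkfb3, which makes the activator of phosphofructokinase, was at 40.7 to 47.4 FPKM in LMA (median 45.4), against 12.3, 8.09 and 15.9 FPKM in N (log2 fold change 1.89 ± 0.22 SE, adjusted p = 1.1e-05). Slc2a1, the glucose transporter GLUT1, was at 96.1 to 106 FPKM in LMA (median 100.4), against 11.9, 9.09 and 45.6 FPKM in N (log2 fold change 2.52 ± 0.55 SE, adjusted p = 0.00256). Ldha, lactate dehydrogenase A, was at 868 to 945 FPKM in LMA (median 919.7), against 109.6, 103 and 1004 FPKM in N (adjusted p = 0.0702), between N 3 and the other N libraries. Of 18 hypoxia targets 7 were called higher and none lower (0 at an unadjusted p below 0.05), and the count was 3 when N 1 was left out, 3 when N 2 was, 13 when N 3 was and 1 with N 3 as the only N library (median log2 fold change with all libraries 1.48). Upp1, uridine phosphorylase, was at 2.58 to 2.96 FPKM in LMA with a median of 2.800, and at 0.1002, 0.805 and 0.0669 FPKM in N (log2 fold change 2.103 ± 0.21 SE, adjusted p = 3.3e-06). Car9, a carbonic anhydrase, was at 2.604 to 3.198 FPKM in LMA with a median of 2.84, and at 0.345, 0.242 and 1.55 FPKM in N (log2 fold change 1.63 ± 0.37 SE, adjusted p = 0.00307). Of 25 cholesterol genes 6 were called higher and 2 lower, and the higher count was 3 when N 1 was left out, 3 when N 2 was, 19 when N 3 was and 0 with N 3 as the only N library (median log2 fold change with all libraries 1.08), and 12 on a median-of-ratios scale. Npc2, a carrier of cholesterol out of lysosomes, was at 84.8 to 88.8 FPKM in LMA (median 87.5), against 43.5, 37.1 and 53.1 FPKM in N (log2 fold change 0.98 ± 0.16 SE, adjusted p = 2.0e-04). Abcg1, which exports cholesterol to lipoproteins, was at 8.96 to 9.78 FPKM in LMA (median 9.18), against 21.96, 16.95 and 18.9 FPKM in N (log2 fold change -1.01 ± 0.077 SE, adjusted p = 1.6e-07) and fell below all N libraries.

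**Figure D4:**
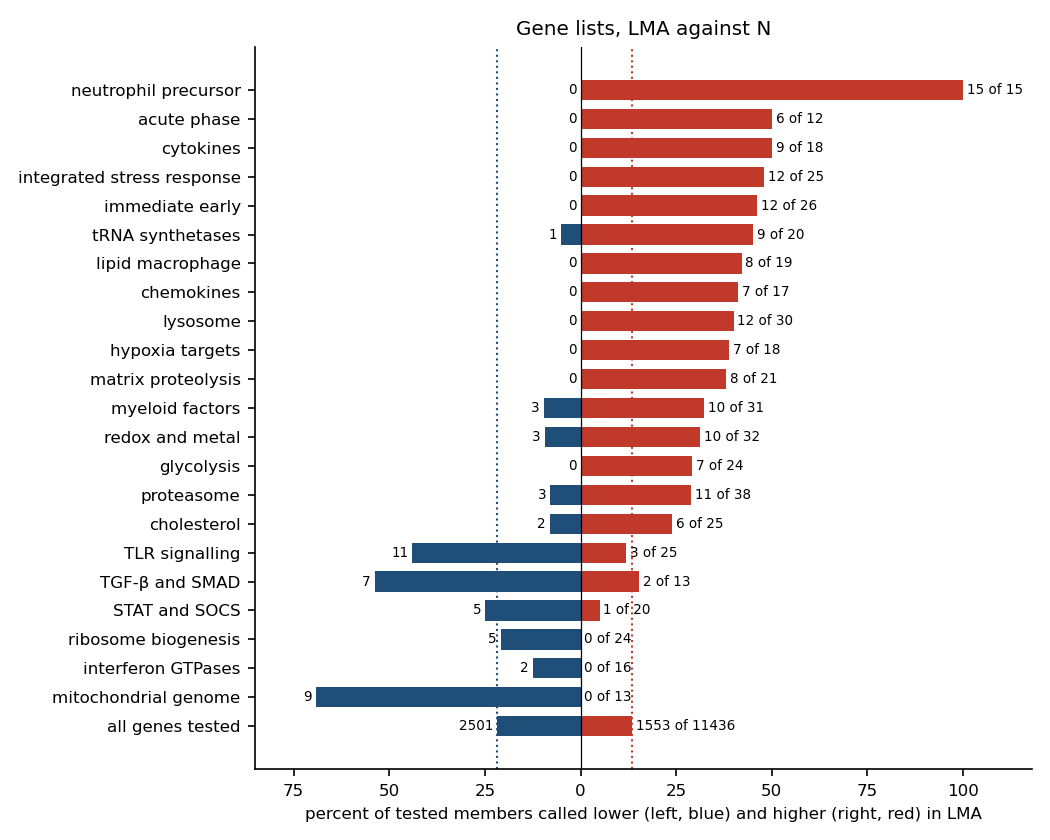
Percent of the tested members of each gene list called lower (blue, to the left) and higher (red, to the right) in LMA, with the counts; dotted lines mark the percent over all 11436 genes tested, 21.9% lower and 13.6% higher. The neutrophil precursor list reaches 15 of 15 higher, and the mitochondrial genome, TGF-β and SMAD and TLR lists have the largest shares called lower.

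Most transcripts of the mitochondrial genome were called lower in LMA, 69.2% of those tested, against 21.9% of all genes tested. Of 13 protein genes 9 were called lower and none higher (0 at an unadjusted p below 0.05), and the count was 9 when N 1 was left out, 8 when N 2 was, 8 when N 3 was and 8 with N 3 as the only N library (median log2 fold change with all libraries -0.78). mt-Nd4l, a subunit of complex I, was at 481 to 612 FPKM in LMA (median 529), against 1151, 1013 and 1060.2 FPKM in N (log2 fold change -1.01 ± 0.11 SE, adjusted p = 4.1e-06). mt-Nd2, of the same complex, was at 568 to 747 FPKM in LMA (median 610.4), against 1337, 1290.5 and 1337 FPKM in N (log2 fold change -1.06 ± 0.13 SE, adjusted p = 1.7e-05). mt-Cytb, cytochrome b of complex III, was at 874 to 1243 FPKM in LMA (median 977), against 2345, 2288 and 2284 FPKM in N (log2 fold change -1.19 ± 0.14 SE, adjusted p = 1.4e-05). The 3 N libraries were close to each other and above LMA. Nuclear genes of the same complexes were called in few cases, 4 higher and 3 lower of 75, although without N 3 the count of higher ones was 34. The shares with all libraries were 5.33% and 4.0%, against 13.6% and 21.9% of all genes tested. The mitochondrial share of all summed FPKM was 6.40% to 7.23% in LMA, against 7.56%, 6.43% and 9.97% in N 1, N 2 and N 3.

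Genes of ribosome assembly were called lower about as often as all genes tested. Of 24 tested 5 (20.8%, against 21.9% of all genes) were lower and none higher (0 at an unadjusted p below 0.05), and the lower count was 4 when N 1 was left out, 6 when N 2 was, 3 when N 3 was and 6 with N 3 as the only N library (median log2 fold change with all libraries -0.23), and on a TPM scale it was 2. Dkc1, the pseudouridine synthase of ribosomal RNA, was at 14.2 to 17.5 FPKM in LMA (median 16.1), against 23.5, 26.96 and 34.2 FPKM in N (log2 fold change -0.78 ± 0.15 SE, adjusted p = 7.8e-04). Polr1b, a subunit of RNA polymerase I, was at 3.905 to 5.44 FPKM in LMA (median 4.95), against 9.47, 6.73 and 10.1 FPKM in N (log2 fold change -0.77 ± 0.17 SE, adjusted p = 0.00309). Both were highest in N 3. Of 38 proteasome genes 11 were called higher and 3 lower, and the count of higher ones was 3 when N 1 was left out, 3 when N 2 was, 25 when N 3 was and 0 with N 3 as the only N library (median log2 fold change with all libraries 0.42), and 19 on a median-of-ratios scale. Psma6, a subunit of the core ring, was at 187 to 203 FPKM in LMA with a median of 195, and at 54.2, 59.7 and 97.1 FPKM in N (log2 fold change 1.51 ± 0.23 SE, adjusted p = 1.2e-04). Psmb10, a subunit of the immunoproteasome, was at 10.6 to 14.4 FPKM in LMA with a median of 11.6, and at 40.2, 32.6 and 13.5 FPKM in N (log2 fold change -1.08 ± 0.27 SE, adjusted p = 0.0058). The second overlapped with N 3. Of proteasome genes 28.9% and of tRNA synthetases 45.0% were called higher, against 13.6% of all genes tested. Of 20 tRNA synthetases 9 were higher and 1 lower, and the higher count was 1 when N 1 was left out, 2 when N 2 was, 17 when N 3 was and 0 with N 3 as the only N library (median log2 fold change with all libraries 0.71). Aars, the alanyl enzyme, was at 29.9 to 33.8 FPKM in LMA (median 32.4), against 11.6, 17.8 and 22.2 FPKM in N (log2 fold change 0.93 ± 0.18 SE, adjusted p = 8.7e-04). Vars, the valyl enzyme, was at 37.7 to 47.2 FPKM in LMA (median 45.9), against 83.8, 66.5 and 67.3 FPKM in N (log2 fold change -0.72 ± 0.099 SE, adjusted p = 5.5e-05). Psmb10 missed the threshold without N 1 (adjusted p = 0.0571).

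Genes of death and cell cycle arrest were in part higher. The shares were 33.3% higher and 12.5% lower, against 13.6% and 21.9% of all genes tested. Of 24 tested 8 were called higher and 3 lower, and the higher count was 7 when N 1 was left out, 5 when N 2 was, 10 when N 3 was and 5 with N 3 as the only N library (median log2 fold change with all libraries 0.27). Mdm2, the ligase that degrades p53, was at 43.1 to 49.7 FPKM in LMA (median 46.3), against 22.6, 19.2 and 27.1 FPKM in N (log2 fold change 1.02 ± 0.14 SE, adjusted p = 4.1e-05). Trp53, p53 itself, was at 31.8 to 34.4 FPKM in LMA (median 33.2), against 62.5, 42.6 and 61.1 FPKM in N (log2 fold change -0.71 ± 0.099 SE, adjusted p = 6.1e-05). They moved in opposite directions and neither overlapped with N. Cflar, an inhibitor of caspase 8, was at 23.6 to 29.2 FPKM in LMA (median 25.2), against 14.6, 9.37 and 12.8 FPKM in N (log2 fold change 1.05 ± 0.19 SE, adjusted p = 5.8e-04). Casp1, the caspase that cuts interleukin-1β and interleukin-18, was at 27.7 to 31.4 FPKM in LMA (median 29.3), against 18.6, 21.5 and 20.9 FPKM in N (log2 fold change 0.52 ± 0.067 SE, adjusted p = 2.8e-05). Of 34 cell cycle genes only Bub1, a kinase of the spindle checkpoint, was called. It was at 34.7 to 37.05 FPKM in LMA with a median of 36.4, and at 0.987, 7.44 and 43.7 FPKM in N (log2 fold change 2.19 ± 0.797 SE, adjusted p = 0.0432), above N 1 and N 2 and below N 3. In this list 18 were called higher without N 3 and 5 on a TPM scale, while without N 1 12 were called lower. Bub1 was not called without any 1 of LMA 1, LMA 2, LMA 3, LMA 4, LMA 5, LMA 6, N 1 and N 2 (adjusted p from 0.0613 to 0.36).

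Interferon-induced genes split. Of 30 genes induced by type I interferon 6 were called higher and 1 lower, and the count of higher ones was 4 when N 1 was left out, 4 when N 2 was, 10 when N 3 was and 1 with N 3 as the only N library (median log2 fold change with all libraries -0.13), while 11 were called lower when N 3 was left out. Slfn4, a schlafen protein of myeloid cells, was at 62.9 to 73.1 FPKM in LMA (median 67.98), against 3.53, 7.21 and 32.5 FPKM in N (log2 fold change 2.77 ± 0.56 SE, adjusted p = 0.00137). Oas3, an oligoadenylate synthetase, was at 41.5 to 45.8 FPKM in LMA (median 43.6), against 5.09, 9.803 and 28.9 FPKM in N (log2 fold change 1.89 ± 0.43 SE, adjusted p = 0.00313). Cmpk2, a mitochondrial nucleotide kinase, was at 0.986 to 1.28 FPKM in LMA (median 1.11), against 5.98, 9.19 and 1.75 FPKM in N (log2 fold change -1.68 ± 0.46 SE, adjusted p = 0.0107). The first pair was above and the last below all N libraries. Irf7, the factor that amplifies interferon, was at 66.7 to 76.1 FPKM in LMA with a median of 73.3, and at 22.3, 24.4 and 26.4 FPKM in N (log2 fold change 1.55 ± 0.086 SE, adjusted p = 5.5e-09), with even N values. Of 16 entries of GTPases induced by interferon-γ and their kin none was called higher (0 at an unadjusted p below 0.05) and 2 were lower. That is 12.5% lower, a smaller share than the 21.9% of all genes tested. Irgm1 was at 9.504 to 11.7 FPKM in LMA with a median of 9.99, and at 34.8, 36.5 and 14.9 FPKM in N (log2 fold change -1.33 ± 0.303 SE, adjusted p = 0.00327). Irgm2 was at 1.55 to 2.47 FPKM in LMA with a median of 1.97, and at 13.1, 21.4 and 3.27 FPKM in N (log2 fold change -2.07 ± 0.59 SE, adjusted p = 0.0127). Both act on vacuoles that hold microbes. Without N 3 all 16 were called lower. Cmpk2 missed the threshold without N 1 (adjusted p = 0.0576) or without N 2 (adjusted p = 0.089). Irgm2 was not called without N 1 (adjusted p = 0.0655) or without N 2 (adjusted p = 0.099).

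Antigen presentation showed few calls with all libraries. Of MHC class I and of class II genes 14.3% each were called lower, against 21.9% of all genes tested. Of 21 MHC class I genes 1 was called higher and 3 lower, and of 14 MHC class II genes none was higher and 2 lower, while without N 3 the lower counts were 19 and 14. Mr1, which presents vitamin metabolites to MAIT cells, was at 7.74 to 8.56 FPKM in LMA (median 8.19), against 4.55, 4.62 and 4.65 FPKM in N (log2 fold change 0.76 ± 0.11 SE, adjusted p = 6.3e-05). Erap1, which trims peptides for class I, was at 14.6 to 15.6 FPKM in LMA (median 15.25), against 25.8, 21.2 and 22.7 FPKM in N (log2 fold change -0.59 ± 0.071 SE, adjusted p = 1.7e-05). Rfx5, a factor of class II promoters, was at 7.04 to 8.46 FPKM in LMA (median 8.004), against 20.2, 15.2 and 11.3 FPKM in N (log2 fold change -0.89 ± 0.19 SE, adjusted p = 0.00198). Only Mr1 was higher in LMA. Of 20 costimulation genes Cd200r1, an inhibitory receptor of myeloid cells, was at 4.76 to 5.43 FPKM in LMA with a median of 5.09, and at 2.500, 4.11 and 2.57 FPKM in N (log2 fold change 0.69 ± 0.16 SE, adjusted p = 0.00432). Havcr2, the checkpoint receptor TIM-3, was at 1.73 to 2.51 FPKM in LMA with a median of 2.07, and at 5.85, 3.42 and 4.56 FPKM in N (log2 fold change -0.95 ± 0.14 SE, adjusted p = 8.7e-05). The other 18 were not called, but without N 3 the list had 12 members lower. Cd86, a ligand of CD28 and CTLA4, was at 2.295 to 3.84 FPKM in LMA (median 2.63), against 16.7, 12.8 and 0.492 FPKM in N (adjusted p = 0.353). Cd274, the checkpoint ligand PD-L1, was at 19.00 to 21.8 FPKM in LMA (median 20.8), against 18.04, 12.5 and 1.48 FPKM in N (adjusted p = 0.108). The LMA values of Cd274 were above all N libraries.

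The target of the antibody and the cytokines that the study followed by other assays gave 2 calls. Cd28 was at 3.19 to 4.61 FPKM in LMA (median 3.86), against 14.7, 14.05 and 1.34 FPKM in N (log2 fold change -0.76 ± 0.72 SE, adjusted p = 0.405). Ctla4, the inhibitory receptor for the same ligands, was at 3.76 to 4.81 FPKM in LMA (median 4.28), against 3.997, 4.48 and 0.294 FPKM in N (log2 fold change 0.87 ± 0.53 SE, adjusted p = 0.201). The LMA values of Cd28 lay between N 3 and the other N libraries, and those of Ctla4 overlapped N 1 and N 2. Tgfb1, the cytokine TGF-β1, was at 53.8 to 55.95 FPKM in LMA (median 54.4), against 98.6, 76.9 and 39.6 FPKM in N (log2 fold change -0.29 ± 0.24 SE, adjusted p = 0.349). Ifng, interferon-γ, was at 0.867 to 1.81 FPKM in LMA (median 1.36), against 3.25, 3.27 and 0 FPKM in N (log2 fold change -0.11 ± 0.57 SE, adjusted p = 0.885). Neither was called, and N 3 was the lowest library for both. Without N 3, calls of a fall were made for Cd28 (adjusted p = 0.0316), Tgfb1 (adjusted p = 0.0136) and Ifng (adjusted p = 0.0445). Il2, interleukin-2, was at 0.0568 to 0.208 FPKM in LMA (median 0.153), against 0.185, 0.364 and 0.0408 FPKM in N. Il4, the T helper 2 cytokine, was at 0.0731 to 0.134 FPKM in LMA (median 0.103), against 0.602, 0.735 and 0.0776 FPKM in N. Neither Il2 nor Il4 passed the filter of a mean of 0.5 FPKM. Il10 and Tnf, called higher, are given with the cytokines. Of the 20 T cell markers none was called in either direction with all libraries (0 at an unadjusted p below 0.05), whereas without N 3 all 20 were called lower and with N 3 as the only N library 3 were called higher, and in each of them the LMA values lay between N 3 and the other N libraries.

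Of the genes that held all 6 LMA libraries between N 3 and the pair of N 1 and N 2, those with the widest gap between N 3 and the pair are described here. On the side where N 3 was highest, Fxyd2, a regulator of the sodium pump, was at 177 to 208 FPKM in LMA (median 192), against 0.148, 0.511 and 448 FPKM in N (adjusted p = 0.103). Lyz1, a lysozyme, was at 237 to 269 FPKM in LMA (median 256), against 2.47, 1.799 and 1026 FPKM in N (adjusted p = 0.196). Mycn, the oncogene N-Myc, was at 93.8 to 103 FPKM in LMA (median 98.2), against 0.0427, 0.143 and 168 FPKM in N (adjusted p = 0.085). The order was N 3, LMA and then N 1 and N 2, which were near 0 for Fxyd2 and Mycn. Trem2, a lipid receptor of macrophages, was at 41.4 to 52.05 FPKM in LMA with a median of 46.2, and at 0.0199, 0.0458 and 70.8 FPKM in N (adjusted p = 0.0811). Gpnmb, a membrane glycoprotein of lipid-laden macrophages, was at 53.5 to 60.4 FPKM in LMA with a median of 55.8, and at 0.166, 0.0134 and 74.8 FPKM in N (adjusted p = 0.0657). Neither was called. Of the genes named by the same rule, Cldn11, Slco4a1, Slc6a12 and Gm10260 also peaked in N 3. On the side where N 3 was lowest stood genes of lymphocytes among others. Prkcb, a kinase of the B cell receptor route, was at 10.1 to 14.9 FPKM in LMA (median 11.99), against 98.8, 78.1 and 0.137 FPKM in N (adjusted p = 0.795). Tcf7, a T cell factor, was at 12.5 to 20.8 FPKM in LMA (median 16.5), against 185, 92.00 and 0.662 FPKM in N (adjusted p = 0.684). Ets1, a factor of both cell types, was at 18.8 to 28.4 FPKM in LMA (median 23.02), against 222, 172 and 1.37 FPKM in N (adjusted p = 0.631). Each LMA library was far below N 1 and N 2 and above N 3. Ablim1, Ikzf3, H2-Ob and Gimap4 were in the same order. The hemoglobin genes Hba-a1 and Hba-a2 had N 2 far above all other libraries.

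The genes in which the 6 LMA libraries differed most included chemokines and matrix genes. Cxcl13, the chemokine that forms B cell follicles, was at 15.6 and 10.8 FPKM in LMA 2 and LMA 3, at 6.29 and 6.34 FPKM in LMA 5 and LMA 6 and under 1 FPKM in LMA 1 and LMA 4, against 1.12, 2.698 and 0.144 FPKM in N. Clu, clusterin, a chaperone of follicular dendritic cells, ran in the same order, with 0.178 to 20.4 FPKM in LMA against 8.07, 7.54 and 0.117 FPKM in N. Ccl21a, the chemokine of the T cell zone, whose near-identical copies can share its reads, ranged over 0 to 9.95 FPKM in LMA, against 0.1295, 0.574 and 0.129 FPKM in N. LMA 2 was the highest LMA library for all 3 genes. Igfbp3, a carrier of insulin-like growth factors, was at 0.0261 to 5.22 FPKM in LMA, against 1.02, 1.01 and 0.0425 FPKM in N. Bgn, a matrix proteoglycan, was at 0.0781 to 5.57 FPKM in LMA, against 2.58, 3.72 and 0.0293 FPKM in N. Igfbp7 was at 0.1604 to 7.53 FPKM in LMA, against 19.2, 15.5 and 0.0261 FPKM in N. LMA 2 was again the highest and LMA 1 and LMA 4 were the lowest LMA libraries. The same held for Ppbp, a platelet chemokine, at 0.306 to 6.19 FPKM in LMA, against 8.37, 5.47 and 0.0151 FPKM in N. None of these was called against N. The labels do not tell the libraries with 1 modulation from those with 2, so whether the order follows the number of modulations cannot be told. Hist2h2aa1, a replication-dependent histone gene with a near-identical copy, was listed at 0 in LMA 5 and at 6.42 to 9.03 FPKM in the other LMA libraries, against 0.9001, 10.1 and 2.54 FPKM in N.

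**Figure D5:**
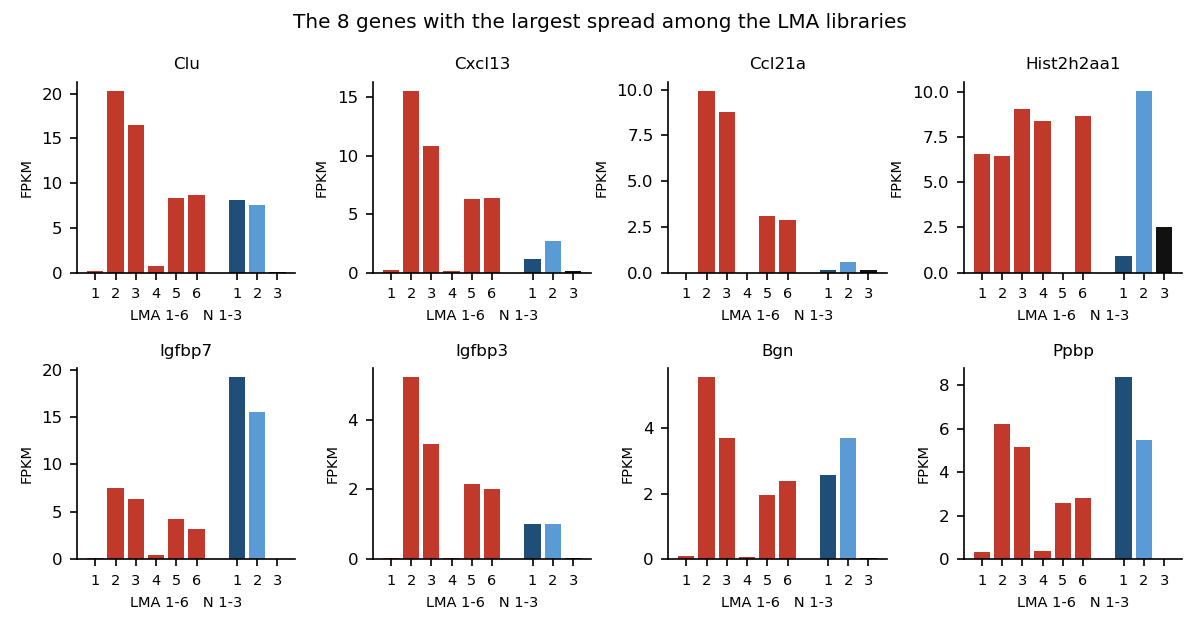
FPKM of the 8 genes with the largest spread among the LMA libraries, 1 bar per library: LMA 1 to 6 in red, then N 1 (dark blue), N 2 (light blue) and N 3 (black), each panel on its own axis from 0. Clu, Cxcl13, Ccl21a, Igfbp7, Igfbp3, Bgn and Ppbp are highest in LMA 2 and lowest in LMA 1 and LMA 4 among the LMA libraries, and Hist2h2aa1 is listed at 0 in LMA 5 only.

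Genes that are not protein-coding were tested in a second fit over all gene types. Of 2959 such genes 424 were higher (14.3%) and 302 lower (10.2%) in LMA. Of the leading rises, several lay inside or across a protein-coding gene. A strand is given for each gene entry but not for the reads, so their reads cannot be told apart from that gene. Gm42793, which overlaps Spp1, was at 221 to 256 FPKM in LMA (median 232), against 0, 0 and 40.2 FPKM in N (log2 fold change 6.77 ± 1.57 SE, adjusted p = 0.00412). RP23-144N15.3, in Itgam, was at 2.36 to 4.96 FPKM in LMA (median 3.67), against 0.344, 0.823 and 0.675 FPKM in N (log2 fold change 1.89 ± 0.23 SE, adjusted p = 2.0e-05). Gm17024, in Ifrd1, was at 9.65 to 10.04 FPKM in LMA (median 9.85), against 0.701, 0.864 and 2.75 FPKM in N (log2 fold change 2.57 ± 0.41 SE, adjusted p = 2.2e-04). The hosts Spp1 and Itgam rose as well. Lilr4b, an inhibitory receptor that overlaps its neighbour Lilrb4a and has no gene type in the annotation, was at 189 to 213 FPKM in LMA with a median of 203, and at 5.13, 5.68 and 22.2 FPKM in N (log2 fold change 4.45 ± 0.46 SE, adjusted p = 4.7e-06). Mir147, the entry of a microRNA of inflamed macrophages that lies in AA467197, was at 3.54 to 5.196 FPKM in LMA with a median of 4.67, and at 1.04, 0.855 and 0.2505 FPKM in N (log2 fold change 2.104 ± 0.32 SE, adjusted p = 1.5e-04), which measures the precursor region and not the mature microRNA. Erich2os was at 3.25 to 4.49 FPKM in LMA (median 3.91), against 0.0338, 0.0688 and 0 FPKM in N (log2 fold change 3.02 ± 0.15 SE, adjusted p = 1.8e-09). Gm44386 was at 3.93 to 5.24 FPKM in LMA (median 4.53), against 0, 0 and 0.344 FPKM in N (log2 fold change 3.102 ± 0.26 SE, adjusted p = 6.0e-07). Both were near 0 in every N library. Of the leading falls, 2010008C14Rik was at 0.242 to 0.892 FPKM in LMA with a median of 0.609, and at 7.41, 4.54 and 3.37 FPKM in N (log2 fold change -2.35 ± 0.22 SE, adjusted p = 2.2e-06). Mir1306, the precursor region in Dgcr8, was at 1.48 to 3.48 FPKM in LMA with a median of 2.95, and at 8.74, 9.902 and 7.96 FPKM in N (log2 fold change -1.52 ± 0.23 SE, adjusted p = 1.4e-04). Each was lower in all LMA libraries than in all N libraries, which the rule for naming them required.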

How the data were processed

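Splenocyte RNA of 18 mouse libraries was sequenced on a NovaSeq, and the 6 LMA and 3 N libraries were compared. The authors estimated counts and deposited 1 table per library with FPKM per gene, and the submitters' notes name the build mm10 and GATK 4.2. The aligner and the counting tool were not given in the sources used here. The FPKM of reference genes were used, and rows of newly assembled loci and the TPM column were not. The deposited coverage, the mean read depth over a gene, served only with FPKM to obtain the aligned gigabases, and exact read counts were not recovered. Rows of 22 genes listed more than once were summed. FPKM share 1 total per library, so a rise of some genes lowers the values of others.

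Gene types came from GENCODE M21, which typed 47224 of 47729 genes. Of 21620 protein-coding genes, the 11436 whose FPKM averaged 0.5 or more across the 18 libraries were tested on log2(FPKM + 0.5) with limma 3.58.1 in R 4.3.3 (a mean-variance trend and 4 groups that share 1 estimate of the spread), with Benjamini-Hochberg adjustment over all genes tested and a threshold of 0.05. A second fit took 14395 genes of all types. On simulated data for LMA against N, with 200 of the 11436 genes changed, 53.5%, 78.5% and 95.5% of the changed genes were recovered at log2 changes of 1, 2 and 4. Of the unchanged genes 6, 5 and 4 were called. The simulated noise was independent between genes and had the same SD per gene in every group. The real N libraries were far less alike than the LMA libraries, so these rates need not hold for the data. Tables and plots were made with Python 3.11.15, pandas 2.3.3 and matplotlib 3.10.9.

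Genes named are the 15 largest rises and falls by the smallest difference from any N library without overlap, up to 4 members of each of 63 lists by adjusted p and others where a list is described, the 10 leading genes each way that are not protein-coding, the receptors targeted by antibodies and the cytokines that the study followed, the 8 genes of largest spread among LMA libraries with a mean of at least 2 FPKM, and 10 genes each way with LMA between N 3 and the pair of N 1 and N 2. A few genes that the rules name are not reported here. Genes of red cells, sex chromosomes and single list members shown for their position were chosen after their values were seen. The comparison, the lists and the rules were chosen with earlier results of these data known. Alternatives were 2 pseudocounts, 2 filters, 4 scalings, sample weights, fewer groups, a replicate block, and fits with libraries left out.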

Additional observations from a re-analysis of the deposited data

Results flagged for a closer look

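In 14 of 218 genes given a test of Dixon's kind over the 6 LMA libraries, the gap of 1 library over the range passed the 95% critical value, where chance alone gives about 1 gene in 20. Of immediate early genes, Fos was at 113 FPKM in LMA 6, against 143.5 to 151.8 FPKM in the other LMA libraries, and Jun was at 58.2 FPKM in LMA 6, against 69.0 to 74.8 FPKM. Stat6 was at 30.0 FPKM in LMA 6 and 32.4 to 33.1 FPKM in the others, Keap1 at 11.99 FPKM in LMA 6 and 11.2 to 11.5 FPKM in the others, and Urah at 26.7 FPKM in LMA 6 and 23.04 to 24.4 FPKM in the others. LMA 6 was thus the library apart in 5 of the 14 genes. In LMA 2, Trem3 was at 6.997 FPKM, against 9.53 to 10.4 FPKM in the others, Icam1 at 7.45 FPKM, against 6.12 to 6.59 FPKM, and Bub1 at 34.7 FPKM, against 36.3 to 37.0 FPKM. In LMA 3, G0s2 was at 8.92 FPKM, against 5.57 to 6.57 FPKM, and Ticam1 at 10.4 FPKM, against 11.5 to 12.04 FPKM. Nupr1 was at 43.0 FPKM in LMA 4, against 54.4 to 58.9 FPKM in the others. In LMA 1, Eif2s3y was at 36.8 FPKM, against 34.5 to 35.2 FPKM, and Gm20939 at 0.780 FPKM, against 0.388 to 0.507 FPKM. Hist2h2aa1 was listed at 0 in LMA 5 and at 6.42 to 9.03 FPKM in the others. Of the 12 called genes among these, only Bub1 lost its call without the library that stood apart (limma, adjusted p = 0.0613).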

How the results depend on the processing

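For LMA against N, protein-coding genes, the 4054 calls became 6956 with sample weights, 2654 to 7552 with 1 library left out, 1725 without N 1 and N 2, and 7044 without N 1, N 2, LMS 2 and LMS 5 (LMS is the group labelled LPPC/MP/CD152), a choice made after seeing that Eif2s3y is listed at 0 in these 4. For LMA against N, all gene types, the 4674 calls became 11490 with weights, 3018 to 8982 with 1 library left out, 2035 without N 1 and N 2, and 8120 without N 1, N 2, LMS 2 and LMS 5. The cause was not tested. Other pseudocounts, filters, scalings and LMA with N alone kept both counts within 1.5 times. LMA and N share replicate numbers but nothing pairs them: deviations of same-numbered libraries correlated at -0.12, 0.32 and -0.30, and the replicate block gave 3236 and 3665 calls.

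Of 180 named genes, 125 kept direction and side of the threshold without N 1 and N 2, 167 without N 1, 168 without N 2, 174 without N 3 and 176 with the replicate block. Without N 1 and N 2, the log2 fold change had the opposite sign for named gene Bub1 (-0.27), named gene Cd28 (1.25), named gene Tgfb1 (0.46) and named gene Ifng (1.84). Ifng also had the opposite sign, at 0.40, with a pseudocount of 0.1, and at 0.38 both without N 1 and without N 2, and without N 3 named gene Ifng was called lower at -1.08.

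Depth was 5.65 to 7.59 gigabases aligned. With 3 N libraries of unlike composition, few genes with LMA between them were called, and genes of low FPKM rest on few reads.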
